A study of Mus musculus with 16 samples.

Results

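Monocyte-attracting CC chemokines and their receptors were followed in mouse hearts after ischaemia and reperfusion. The set holds 7 ligands (Ccl2, Ccl7, Ccl12, Ccl8, Ccl3, Ccl4 and Ccl9) and 2 receptors (Ccr1 and Ccr2), chosen by name through the platform annotation and not by their values, with the probe set of highest mean signal taken for each gene. All 9 genes were found, each with 1 probe set, among 19505 named genes on the arrays. The animals were wild-type male C57BL/6 mice, 10 weeks old. One group had sham surgery, and in 3 groups the left anterior descending coronary artery, the vessel of the anterior ventricular wall, was occluded for 30 min, after which blood flow returned for 6, 24 or 72 h. Each group held 4 hearts, 1 array per heart, for 16 arrays. The labels give no hours for the sham hearts, so the same 4 sham arrays served all 3 comparisons with sham, and surgery and time after surgery cannot be told apart from them.

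CC chemokines are small secreted proteins that guide leukocytes along a gradient by engaging G protein-coupled receptors. CCR2 brings Ly6C-high monocytes out of bone marrow and into injured tissue, and CCL2, CCL7 and, in mouse, CCL12 are its ligands. CCR1 is carried by monocytes, macrophages and neutrophils and is engaged by CCL3, CCL7 and CCL9 among others. In infarcted myocardium these receptors are known for the early recruitment of myeloid cells that remove dead tissue and then shape the scar.

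RNA came from heart tissue, so values are levels over all its cells. Fewer cells of a type and less RNA per cell cannot be told apart in such samples. All 8 cardiomyocyte markers lay above background in each group, and their mean log2 signal was 18.02 to 18.09 in sham hearts, 17.93 to 18.03 at 6 h, 17.55 to 17.82 at 24 h and 17.79 to 17.96 at 72 h. Values below are deposited log2 signals. Background is taken as 6.76, the 75th percentile of 5222 negative control probe sets. Signals of different probe sets cannot be set against each other, so levels are compared within a gene. Changes are differences of group means from limma fitted to all 16 arrays, given ± standard error (SE), and a change is called where its p-value, adjusted by Benjamini-Hochberg over 19505 genes, is under 0.05. Where no sham array exceeded background, a fold is given as a lower bound, with 6.76 standing in for the sham level. The bound is on the fold of the group means and does not include their SE. Array number (4 per group) limits the precision, and the median SE over all genes was 0.183.

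At 24 h, 2 arrays lay at opposite ends of the group in most of the 9 genes. Replicate 17 had the lowest of the 4 signals in 8 of the 9 genes, and replicate 16 had the highest in the same 8. Only Ccl4 did not follow that order. The mean of 14 monocyte markers lay 1.38 log2 units above the sham mean in replicate 17 and 2.76 above it in replicate 16, against 1.87 and 2.22 in replicates 14 and 15. The mean of 11 neutrophil markers lay 1.04 above sham in replicate 17 and 3.32 above it in replicate 16, against 2.01 and 3.03 in replicates 14 and 15. Replicate 16 also had a mean of 7 atrial markers 2.58 above sham, whereas the other 3 arrays at 24 h lay 0.22 to 0.46 below it. The part of these differences in the chemokine results was not tested. Where leaving out replicate 16 or 17 changes a call, or moves a fold by over 1.5 times, the value without it is given beside the result.

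The stretches of 250 bases before the annotated starts of 4 of the genes are shown first, because they belong to neighbours on a chromosome whose RNA took different courses in these hearts. Ccl12 (chr11:82101595-82101844, plus strand) and Ccl8 (chr11:82114935-82115184, plus strand) lie next to each other among the monocyte chemoattractant protein genes. Ccr1 (chr9:123968693-123968942, minus strand) and Ccr2 (chr9:124101933-124102182, plus strand) share a receptor cluster. Sequences are from RefSeq on GRCm38.p6, written 5′ to 3′ on the gene's strand, with motif matches in capitals:
Ccl12: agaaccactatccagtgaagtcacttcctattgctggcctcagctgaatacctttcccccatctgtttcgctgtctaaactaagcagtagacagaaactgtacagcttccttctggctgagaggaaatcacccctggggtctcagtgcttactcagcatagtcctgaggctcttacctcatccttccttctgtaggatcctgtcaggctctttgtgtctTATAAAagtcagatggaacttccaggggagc
Ccl8: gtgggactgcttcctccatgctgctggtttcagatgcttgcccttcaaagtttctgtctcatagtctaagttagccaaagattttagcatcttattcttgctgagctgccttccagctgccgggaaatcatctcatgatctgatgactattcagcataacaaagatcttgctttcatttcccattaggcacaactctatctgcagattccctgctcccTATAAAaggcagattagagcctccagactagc
Ccr1: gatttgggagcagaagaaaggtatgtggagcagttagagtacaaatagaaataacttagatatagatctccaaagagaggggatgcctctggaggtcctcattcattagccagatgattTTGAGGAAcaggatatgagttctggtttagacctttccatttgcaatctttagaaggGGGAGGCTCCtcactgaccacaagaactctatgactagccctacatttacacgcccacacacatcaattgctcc
Ccr2: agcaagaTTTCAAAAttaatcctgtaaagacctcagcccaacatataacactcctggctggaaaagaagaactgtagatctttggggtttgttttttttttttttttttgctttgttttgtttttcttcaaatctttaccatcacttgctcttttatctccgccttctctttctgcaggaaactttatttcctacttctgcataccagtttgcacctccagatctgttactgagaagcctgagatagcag

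RefSeq entries were matched for 6 of the 9 genes (these 4, Ccl3 and Ccl9). The motifs searched on both strands were TATAAA (the TATA box), TGANTCA (AP-1), TTNNGNAA (C/EBP), TTCNNNGAA (GAS), the kB motif and the interferon-stimulated response element (ISRE), where N is any base. The kB motif is GGGA, 4 bases of any kind and CC, and the ISRE is GAAA, 2 bases of any kind and GAAA. Ccl12 and Ccl8 each held TATAAA near the start, at 31 to 26 bases before it in Ccl12 and at 32 to 27 in Ccl8, a motif found in 12.4% of 32851 windows of this length. Ccr1 held a C/EBP match at 131 to 124 bases and a kB match at 74 to 65 bases before its start. Ccr2 held only a C/EBP match, on the opposite strand at 243 to 236 bases. C/EBP matches occurred in 36.8% of all windows and kB matches in 17.6%. Ccl3 had a C/EBP match at 100 to 93 bases. Ccl9 had 2 C/EBP matches, 3 TATAAA matches, of which 2 overlap on opposite strands, and an AP-1 match at 53 to 47 bases, a motif in 6.75% of windows. No ISRE or GAS letters occurred in these 6 windows, against 2.98% and 7.02% of all windows. The Ccl12 and Ccl8 windows were identical at 150 of 270 aligned positions (55.6%), above the 41.0% to 50.4% of the other 14 pairs among the 6 windows. The longest run the pair shared was 8 bases.

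Ccl2, the main CCR2 ligand, was far above its sham level at 6 and 24 h and lower again at 72 h. Its log2 signal was 5.77, 5.38, 5.35 and 5.67 in the sham hearts and 12.09, 11.41, 11.36 and 11.47 at 6 h. It was 12.21, 12.83, 13.35 and 10.93 at 24 h and 7.43, 8.69, 7.96 and 9.35 at 72 h. Every reperfused heart lay above every sham heart, and every heart at 72 h lay below every heart at 6 and 24 h. At 6 h Ccl2 was higher than in sham by 6.04 ± 0.41 (limma adjusted p = 3.371e-09, at least 28.3-fold). At 24 h it was higher by 6.79 ± 0.41 (adjusted p = 3.021e-09, at least 47.5-fold). At 72 h it was still higher by 2.81 ± 0.41 (adjusted p = 4.613e-05, at least 3.02-fold). The signal had thus come down by the last time point without reaching the sham level. Ccl2 at 72 h fell by 3.98 ± 0.41 against 24 h (adjusted p = 2.619e-06) and by 3.23 ± 0.41 against 6 h (adjusted p = 5.256e-06). The change at 24 h against 6 h was 0.75 ± 0.41 (adjusted p = 0.186). Without replicate 17 at 24 h it was 1.22 with adjusted p = 0.0119.

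Ccl7, which engages CCR2 and CCR1, was likewise higher at 6 and 24 h and lower again at 72 h. The 4 sham hearts had log2 signals of 5.74, 5.33, 5.85 and 6.42. Signals were 9.62, 8.98, 9.22 and 8.58 at 6 h, 10.53, 11.19, 11.31 and 8.29 at 24 h, and 6.49, 7.47, 6.96 and 7.90 at 72 h. All reperfused hearts exceeded all sham hearts, although the lowest heart at 72 h did so by a narrow margin. Ccl7 was higher than in sham by 3.27 ± 0.48 at 6 h (limma adjusted p = 4.745e-05, at least 5.06-fold) and by 4.50 ± 0.48 at 24 h (adjusted p = 1.397e-06, at least 11.8-fold). Without 24 h replicate 17 the bound at 24 h was 19.0-fold (a change of 5.18). At 72 h the change was 1.37 ± 0.48 (adjusted p = 0.0462, with 3 of 4 arrays above background). The mean at 72 h, 7.20, was near background, so no fold is given there. The call at 72 h was lost under quantile normalization (adjusted p = 0.0669), under median centring (0.0523) and with a variance trend and robust moderation (0.0960). It was also lost without sham replicate 2, 3 or 4, 6 h replicate 8 or 10, 24 h replicate 14, or 72 h replicate 21, 22 or 23, with adjusted p up to 0.144. Ccl7 at 72 h fell by 3.12 ± 0.48 against 24 h (adjusted p = 0.00018) and by 1.90 ± 0.48 against 6 h (adjusted p = 0.00489). At 24 h against 6 h the change was 1.23 ± 0.48 (adjusted p = 0.0623), and without replicate 17 it was 1.91 (adjusted p = 0.000165).

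Ccl12, a mouse CCR2 ligand encoded on the other side of Ccl11 from Ccl7, was high at all 3 reperfusion times. Sham hearts had log2 signals of 6.72, 5.18, 5.03 and 9.19, and signals were 10.58, 10.08, 10.34 and 9.10 at 6 h. They were 11.50, 12.04, 12.27 and 10.59 at 24 h and 11.04, 11.19, 10.52 and 11.22 at 72 h. Sham replicate 5, at 9.19, lay above the lowest heart at 6 h, so those groups overlapped, and only this sham array exceeded background. Against sham, Ccl12 was higher by 3.49 ± 0.63 at 6 h (limma adjusted p = 0.000404), by 5.07 ± 0.63 at 24 h (adjusted p = 7.041e-06) and by 4.46 ± 0.63 at 72 h (adjusted p = 3.257e-05). Without sham replicate 5 these changes were 4.38, 5.96 and 5.35, which on the linear scale moves each fold by more than 1.5 times. Replicate 5 also had the highest sham signal of Ccl7, Ccl3, Ccl4 and Ccr1. At 72 h against 24 h Ccl12 differed by -0.61 ± 0.63 (adjusted p = 0.659), with a 95% interval of -1.92 to 0.71. At 24 h against 6 h the change was 1.57 ± 0.63 (adjusted p = 0.0679), and without replicate 17 it was 1.91 (adjusted p = 0.0359).

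Ccl8, whose mouse protein is known as a CCR8 ligand, was the late member of the group. Log2 signals were 3.48, 3.65, 2.91 and 3.36 in sham hearts, 3.58, 3.85, 3.27 and 3.49 at 6 h, 3.76, 3.93, 4.14 and 3.55 at 24 h, and 6.57, 6.42, 6.61 and 6.57 at 72 h. The 4 hearts at 72 h lay close together (6.54 ± 0.08, SD) and far above the other 12. None of the 16 arrays exceeded the background of 6.76, so no fold is given. The mean at 72 h lay above 72.9% of negative controls, against 8.0% in sham. Relative to sham, Ccl8 was higher by 3.19 ± 0.17 at 72 h (limma adjusted p = 2.578e-10), and the change at 72 h was 2.70 ± 0.17 against 24 h (adjusted p = 9.948e-09) and 2.99 ± 0.17 against 6 h (adjusted p = 2.597e-10). The change at 24 h against sham was 0.50 ± 0.17 (adjusted p = 0.0390). It was lost under median centring (adjusted p = 0.0805), under poly-A spike-in centring (0.179) and without sham replicate 4 (0.152) or 5 (0.0663) or 24 h replicate 14 (0.0559), 15 (0.0914) or 16 (0.131). The call was also lost with 24 h replicates 16 and 17 both left out (0.088) and with only both groups compared in the fit (0.0785). At 6 h the change was 0.20 ± 0.17 (adjusted p = 0.507).

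**Figure D1:**
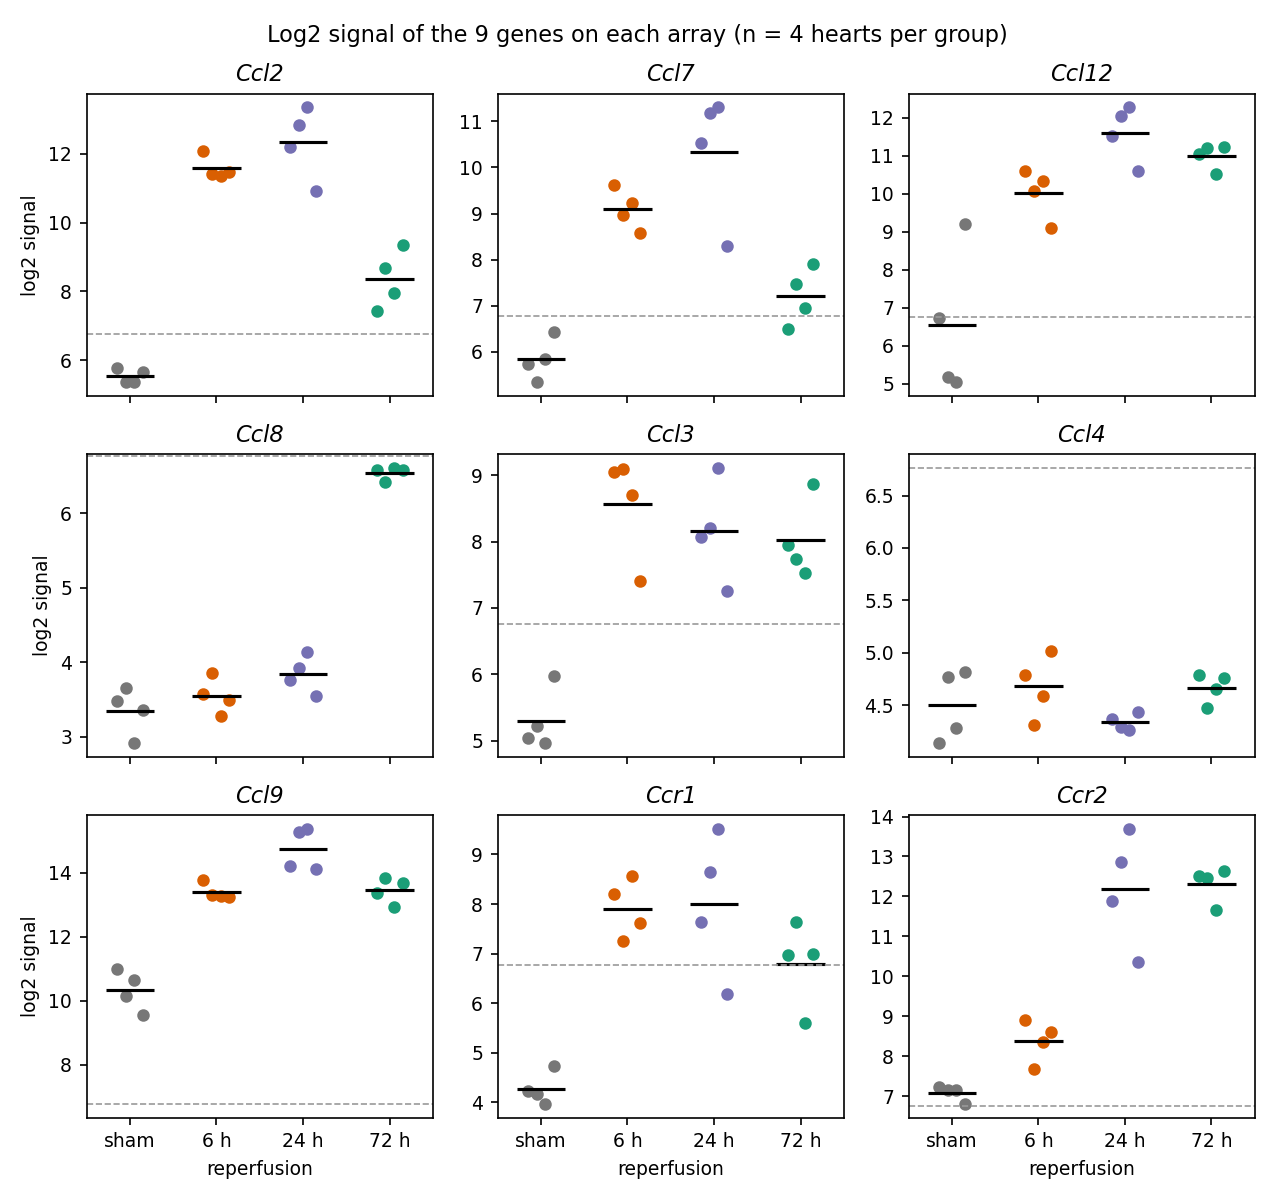
Log2 signal of each of the 9 genes in every heart, in panels by gene, with groups in the order sham, 6, 24 and 72 h of reperfusion on the x axis. Points are single arrays (4 per group), lines mark group means and the dashed line is background. Ccl2 and Ccl7 are lower at 72 h than at 24 h, and Ccr2 averages 12.20 at 24 h and 12.32 at 72 h. Ccl8 is highest at 72 h, where its mean of 6.54 is still below background.

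Ccl3, a ligand of CCR1, was higher than in sham at all 3 reperfusion times. Its log2 signal was 5.03, 5.22, 4.96 and 5.97 in sham hearts, 9.06, 9.10, 8.70 and 7.41 at 6 h, 8.08, 8.20, 9.11 and 7.26 at 24 h, and 7.95, 7.74, 7.53 and 8.86 at 72 h. No reperfused heart overlapped the sham hearts, and the 3 reperfused groups overlapped each other. Ccl3 was higher than in sham by 3.27 ± 0.39 at 6 h (limma adjusted p = 4.37e-06, at least 3.49-fold), by 2.87 ± 0.39 at 24 h (adjusted p = 1.913e-05, at least 2.64-fold) and by 2.73 ± 0.39 at 72 h (adjusted p = 3.82e-05, at least 2.39-fold). Differences between reperfusion times were -0.40 at 24 h against 6 h, -0.14 at 72 h against 24 h and -0.54 at 72 h against 6 h (adjusted p = 0.480, 0.896 and 0.315). Their 95% intervals were -1.22 to 0.41, -0.96 to 0.67 and -1.36 to 0.27.

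Ccl4, a chemokine of macrophages encoded next to Ccl3, did not pass the test at any time on the deposited scale. Its log2 signal ranged from 4.14 to 4.82 in sham hearts, 4.31 to 5.02 at 6 h, 4.26 to 4.43 at 24 h and 4.47 to 4.79 at 72 h. All 16 arrays were below background. The changes against sham were 0.18 at 6 h, -0.16 at 24 h and 0.17 at 72 h (SE 0.17, limma adjusted p = 0.567, 0.548 and 0.543). Their 95% intervals were -0.19 to 0.54, -0.53 to 0.20 and -0.20 to 0.53. With arrays centred on the hybridization spike-ins, the change at 72 h against sham was 0.66 (adjusted p = 0.0179). Below background such intervals bound the difference in signal and not the difference in RNA. The test over all 4 groups gave adjusted p = 0.291 for Ccl4, whereas the other 8 genes had 2.04e-05 or less.

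Ccl9, a CCR1 ligand of the mouse, was above background in all 16 hearts and rose at every reperfusion time. Its log2 signal was 10.999, 10.16, 10.64 and 9.54 in sham hearts, 13.77, 13.29, 13.27 and 13.23 at 6 h, 14.21, 15.27, 15.37 and 14.10 at 24 h, and 13.37, 13.83, 12.92 and 13.67 at 72 h. Every heart at 24 h exceeded every heart of the other 3 groups. Ccl9 was higher than in sham by 3.06 ± 0.31 at 6 h (limma adjusted p = 6.74e-07, 8.31-fold), by 4.40 ± 0.31 at 24 h (adjusted p = 1.682e-08, 21.2-fold) and by 3.11 ± 0.31 at 72 h (adjusted p = 5.767e-07, 8.65-fold). At 24 h against 6 h the change was 1.35 ± 0.31 (adjusted p = 0.00277), and at 72 h Ccl9 fell by 1.29 ± 0.31 against 24 h (adjusted p = 0.0081). At 72 h against 6 h it differed by 0.06 (adjusted p = 0.915).

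Ccr1, the receptor for CCL3, CCL7 and CCL9, was higher at all 3 times. In log2 units it measured 4.23, 4.17, 3.96 and 4.74 in sham hearts, 8.20, 7.26, 8.56 and 7.61 at 6 h, 7.64, 8.64, 9.52 and 6.19 at 24 h, and 6.98, 7.63, 5.60 and 6.99 at 72 h. All reperfused hearts exceeded all sham hearts, and the 4 hearts at 24 h spanned the range of the other reperfused groups but for 1 heart at 72 h. Ccr1 was higher than in sham by 3.63 ± 0.52 at 6 h (limma adjusted p = 3.45e-05, at least 2.21-fold), by 3.72 ± 0.52 at 24 h (adjusted p = 2.392e-05, at least 2.35-fold with 3 of 4 arrays above background, and at least 3.57-fold without replicate 17) and by 2.52 ± 0.52 at 72 h (adjusted p = 0.00133). The mean at 72 h, 6.80, was itself near background, so no fold is given there. Between reperfusion times no change passed the test on all arrays. At 72 h against 24 h it was -1.20 (adjusted p = 0.157), and without replicate 17 it was -1.80 (adjusted p = 0.00763). At 72 h against 6 h it was -1.11 (adjusted p = 0.114), and the same change had adjusted p = 0.0412 with replicate 17 out of the fit and 0.0261 with replicates 16 and 17 both out.

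Ccr2, the receptor for CCL2, CCL7 and CCL12 and a marker of recruited monocytes, was far higher at 24 and 72 h than at 6 h. Its log2 signal was 7.22, 7.17, 7.16 and 6.81 in sham hearts, 8.91, 7.68, 8.35 and 8.60 at 6 h, 11.88, 12.86, 13.69 and 10.36 at 24 h, and 12.52, 12.45, 11.67 and 12.64 at 72 h. The hearts at 6 h lay above all sham hearts and below all hearts at 24 and 72 h, which overlapped each other. At 6 h the change against sham was 1.30 ± 0.46 (limma adjusted p = 0.0546, 95% interval 0.33 to 2.27). It was 5.11 ± 0.46 at 24 h (adjusted p = 2.309e-07, 34.5-fold) and 5.23 ± 0.46 at 72 h (adjusted p = 1.26e-07, 37.6-fold). Without replicate 17 the change at 24 h was 5.72, or 52.8-fold. Ccr2 also rose by 3.81 ± 0.46 at 24 h against 6 h (adjusted p = 5.57e-06) and by 3.93 ± 0.46 at 72 h against 6 h (adjusted p = 2.194e-06), and at 72 h against 24 h it differed by 0.12 (adjusted p = 0.927). The change at 6 h passed the threshold under quantile normalization (adjusted p = 0.0435), under median centring (0.0479), with filters on dim genes at background (0.0367) and at the 25th percentile (0.0462), with array weights (0.0200), with only both groups compared in the fit (0.00172), and without 6 h replicate 8 (0.0351) or 24 h replicate 16 (0.0186), 17 (0.00551) or both (0.00161). It did not pass under the other 17 alternatives.

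The timing of both receptors was compared within arrays, as the log2 signal of Ccr2 minus that of Ccr1 in the same heart. The pairs of genes set against each other in this way were chosen after their values were seen. The size of that difference also holds the probe sets' own brightness, so only its shift between groups is read. It lay between 2.07 and 3.19 in sham hearts and was 0.71, 0.43, -0.22 and 0.99 at 6 h, 4.24, 4.22, 4.18 and 4.17 at 24 h, and 5.54, 4.83, 6.07 and 5.65 at 72 h. At 24 h the spread of the difference was 0.03 (SD), although each receptor alone spread by 1.43. The difference was larger at 24 h than at 6 h by 3.72 and at 72 h than at 24 h by 1.32 (exact permutation test, two-sided, p = 0.0286 for each, adjusted p = 0.0381 over 12 such tests). A p of 0.0286 is the smallest that 4 arrays against 4 can give. The adjustment covers the 12 tests made and not the choice of the pairs. Ccr1 was below background in all 4 sham hearts, so the shift from sham to 6 h is not read. It was also below background in 1 heart at 24 h and 1 at 72 h.

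The same comparison was made for 3 pairs of ligands, of which that of Ccl8 and Ccl12 is not read here because Ccl8 was below background on all 16 arrays. Ccl12 minus Ccl2 was larger at 72 h than at 24 h by 3.37 and than at 6 h by 4.20 (exact permutation adjusted p = 0.0381 for each). Ccl7 minus Ccl2 was larger at 72 h than at 24 h by 0.85 and than at 6 h by 1.33 (exact permutation adjusted p = 0.0381 for each). At 72 h Ccl7 averaged 7.20, near background, with 3 of 4 arrays above it, so its fall there may be understated. The part of background in this shift was not tested. At 24 h against 6 h neither passed, with shifts of 0.83 for Ccl12 minus Ccl2 and 0.48 for Ccl7 minus Ccl2.

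**Figure D2:**
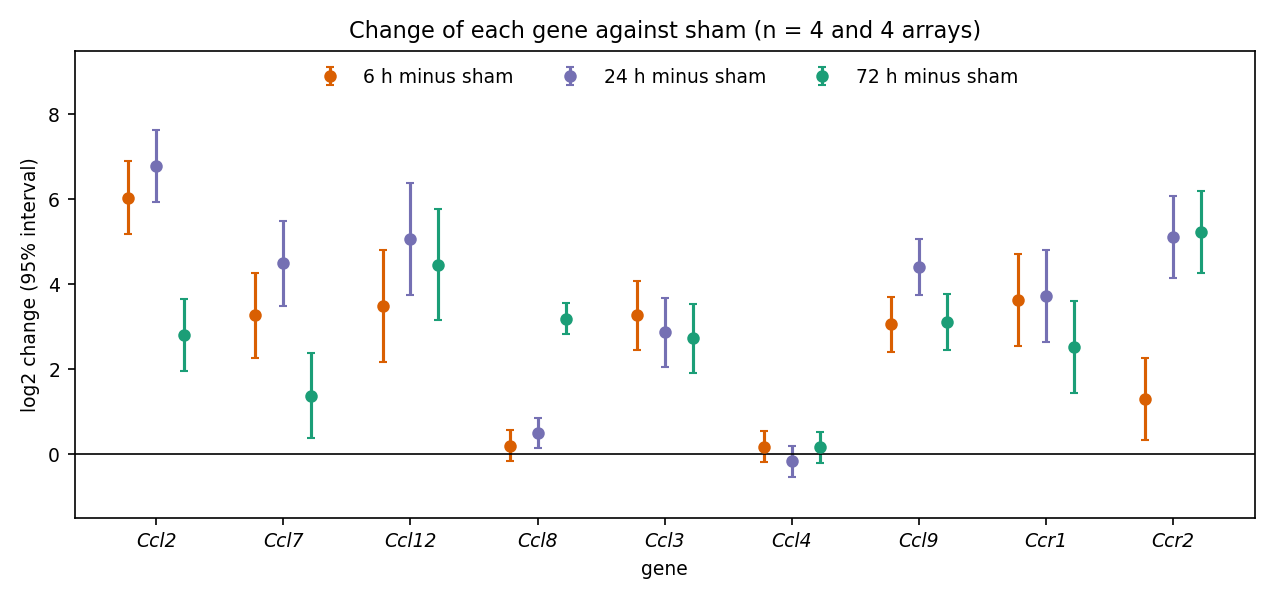
Log2 change against sham of the 9 genes at 6, 24 and 72 h of reperfusion, from limma on 16 arrays, with bars for the 95% interval. Ccl2 is 6.04, 6.79 and 2.81 above sham at 6, 24 and 72 h, Ccr2 is 1.30, 5.11 and 5.23 above it, and the intervals of Ccl4 hold 0 at each time.

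Counted together, 6 of the 9 genes were called higher at 6 h than in sham (Ccl2, Ccl7, Ccl12, Ccl3, Ccl9 and Ccr1), where 7.92% of all 19505 genes were. At 24 h 8 of 9 were called higher, all but Ccl4, against 13.8% of all genes. At 72 h the same 8 were called higher, against 11.5% of all genes. None was called lower at any of these times, where 12.3%, 12.3% and 10.3% of all genes were. Every heart of the time point lay above all sham hearts for 6 of 9 genes at 6 h, 7 at 24 h and 8 at 72 h, against 9.06%, 12.9% and 12.7% of all genes. The median change of the 9 genes was 3.27 at 6 h, 4.40 at 24 h and 2.81 at 72 h, and that of all genes was -0.04, -0.07 and -0.09. These 3 comparisons share their sham arrays.

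Between reperfusion times the genes went different ways. At 24 h against 6 h, 2 of 9 were called higher (Ccl9 and Ccr2) and none lower, where 17.3% and 10.9% of all genes were, so the count is near the background. Without replicate 17 the count was 5, with Ccl2, Ccl7 and Ccl12 added, and 30.1% of all genes were then called in either direction, against 28.2% with all arrays. Without replicates 16 and 17 it was 3, with Ccl7 added, and 26.6% of all genes were then called in either direction. At 72 h against 24 h, Ccl8 was called higher and Ccl2, Ccl7 and Ccl9 lower, where 6.85% of all genes were called higher and 6.07% lower. Without replicate 17 Ccr1 was also called lower. At 72 h against 6 h, Ccl8 and Ccr2 were called higher and Ccl2 and Ccl7 lower, where 17.5% and 13.1% of all genes were. Ccr1 was also called lower there without replicate 17 and without replicates 16 and 17. The median change of the 9 genes was 0.75 at 24 h against 6 h, -0.61 at 72 h against 24 h and -0.01 at 72 h against 6 h.

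**Figure D3:**
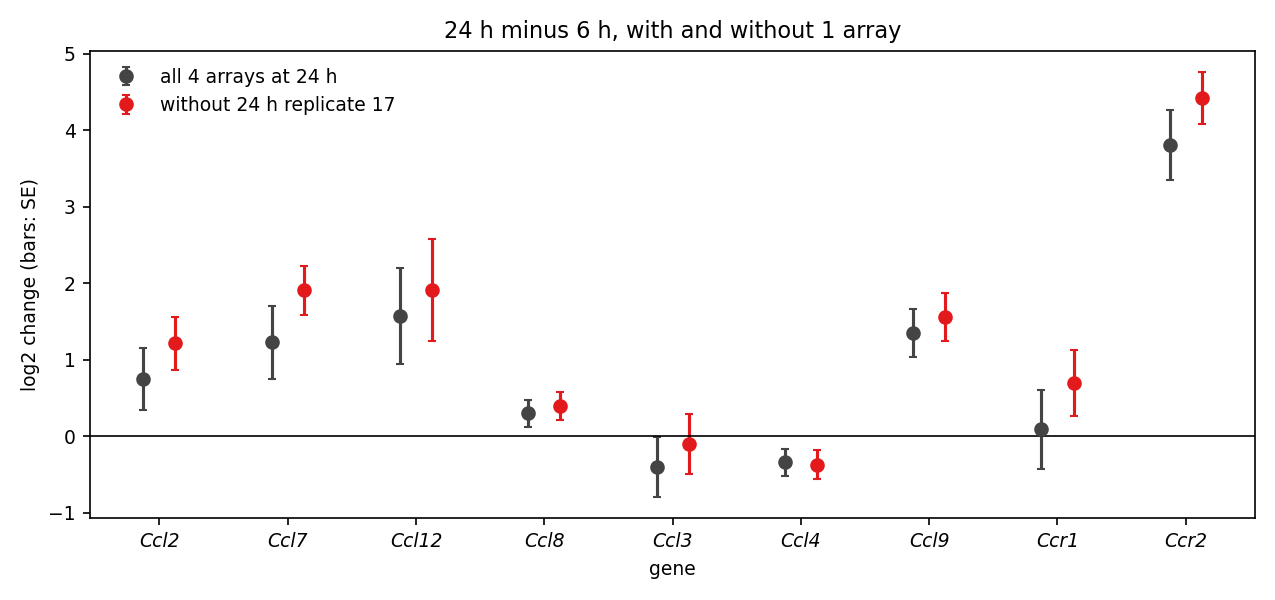
Log2 change at 24 h against 6 h for the 9 genes, with all 4 arrays at 24 h and with replicate 17 left out, from limma. Bars are SE. Ccr2 changes by 3.81 with all arrays and 4.42 without replicate 17, and Ccl7 by 1.23 and 1.91.

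**Figure D4:**
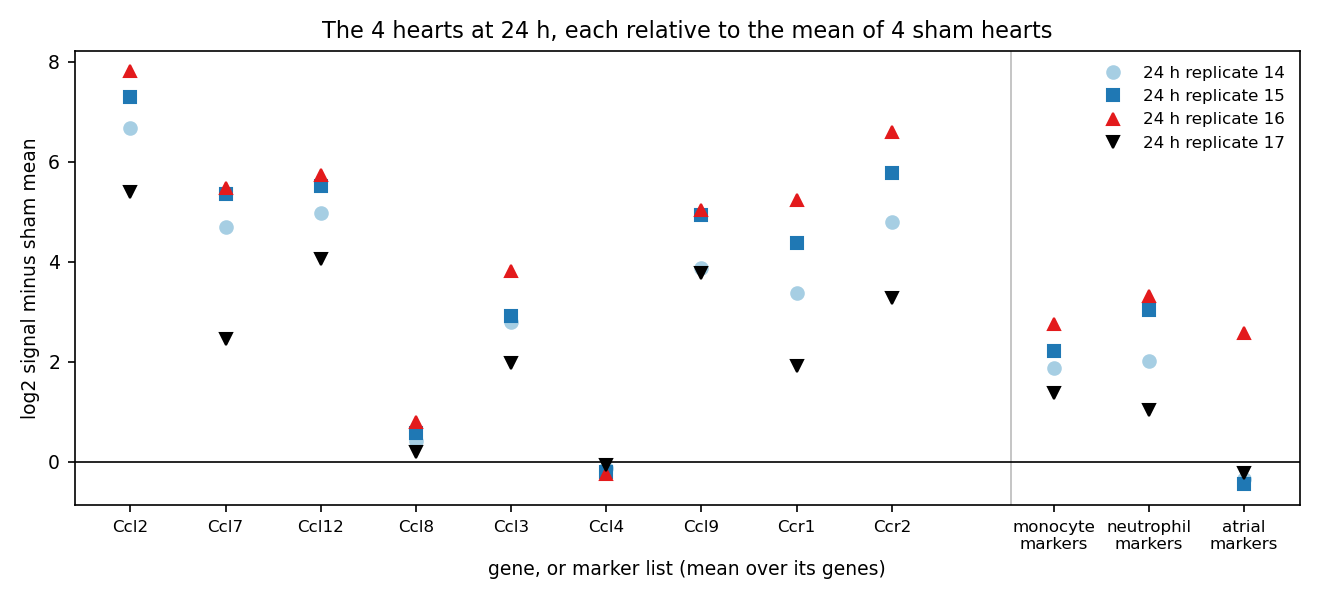
Log2 signal of each of the 9 genes in the 4 hearts at 24 h, relative to the gene's sham mean, with the means of the monocyte, neutrophil and atrial marker lists beside them. Replicate 17 is lowest and replicate 16 highest in 8 of 9 genes, and the monocyte list lies 1.38 above sham in replicate 17 and 2.76 above it in replicate 16.

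Markers of the leukocytes that carry these receptors moved in the same hearts. Of 14 monocyte markers, 7 were called higher and 1 lower at 6 h against sham, 12 were called higher at 24 h and 11 at 72 h. For these and the lists below, 7.92%, 13.8% and 11.5% of all genes were called higher at 6, 24 and 72 h. The shares of all genes called lower were 12.3%, 12.3% and 10.3%. The monocyte markers Spn and Gpr141 had means below background in each group. The mean log2 signal of the 14 monocyte markers per array was 7.45 to 7.62 in sham hearts, 8.31 to 8.65 at 6 h, 8.89 to 10.26 at 24 h and 9.29 to 9.92 at 72 h. Itgam, the CD11b integrin chain, rose by 5.29 at 24 h, Chil3 by 4.83 at 24 h and the lysozyme gene Lyz2 by 4.20 at 72 h (limma adjusted p = 2.347e-08, 1.741e-05 and 1.476e-09). Of 11 neutrophil markers, 6 were called higher at 6 h, 7 at 24 h and 2 at 72 h, and their mean log2 signal was 3.90 to 4.28 in sham hearts, 5.88 to 7.40 at 6 h, 5.15 to 7.43 at 24 h and 4.56 to 5.61 at 72 h. All 11 were below background in sham hearts, 5 of 11 at 6 h, 5 at 24 h and 10 at 72 h. Of 8 resident macrophage markers, 5 were called higher and 1, Lyve1, lower at 72 h. The means of 4 of the 8 at 72 h, Timd4, Cd163, Vsig4 and Siglec1, were below background. All 8 T and NK cell markers and all 3 measured B cell markers were below background in each group. Of 6 fibroblast markers, 5 were called higher at 72 h against sham, and the mean of the 6 lay 0.77 to 1.18 above sham in the 4 hearts at 72 h. The mean of 6 endothelial markers lay 0.30 to 0.51 below sham in these hearts. The part of these cell types in the chemokine changes was not tested.

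Neighbouring genes on the chromosome did not all move with the members. In the first cluster on chromosome 11 the order is Ccl2, Ccl7, Ccl11, Ccl12, Ccl8 and Ccl1. Ccl11, the eosinophil attractant eotaxin, was higher than in sham by 1.32 at 6 h and fell by 0.92 at 24 h (limma adjusted p = 0.00155 and 0.0172), while Ccl7 and Ccl12 on either side were higher by 4.50 and 5.07 at 24 h. The Ccl11 mean at 24 h, 6.43, was below background. Ccl1, at the far end, had changes of 0.00, 0.04 and -0.30 at 6, 24 and 72 h, none of them called. Its means, 3.39 to 3.72, were below background in each group. In the second cluster the order is Ccl5, Ccl9, Ccl6, Ccl3 and Ccl4. Ccl6, another CCR1 ligand of the mouse, was higher by 1.83 at 6 h, 3.76 at 24 h and 2.36 at 72 h (adjusted p = 0.00165, 8.558e-07 and 0.0001467). Ccl5, a ligand of CCR1 and CCR3, had changes of 0.53, -0.32 and 0.02, of which that at 6 h was called (adjusted p = 0.0349). Ccl5 means, 3.72 to 4.57, were below background in each group, 6 h included. In the receptor cluster on chromosome 9, Ccr1l1 and Ccr3 lie between Ccr1 and Ccr2, and neither passed the test at any time. Their changes were -0.24, -0.19 and -0.13 for Ccr1l1 and 0.37, 0.15 and -0.18 for Ccr3 at 6, 24 and 72 h. Ccr3 means, 4.66 to 5.21, were below background in each group. Below background such changes bound the difference in signal and not the difference in RNA.

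**Figure D5:**
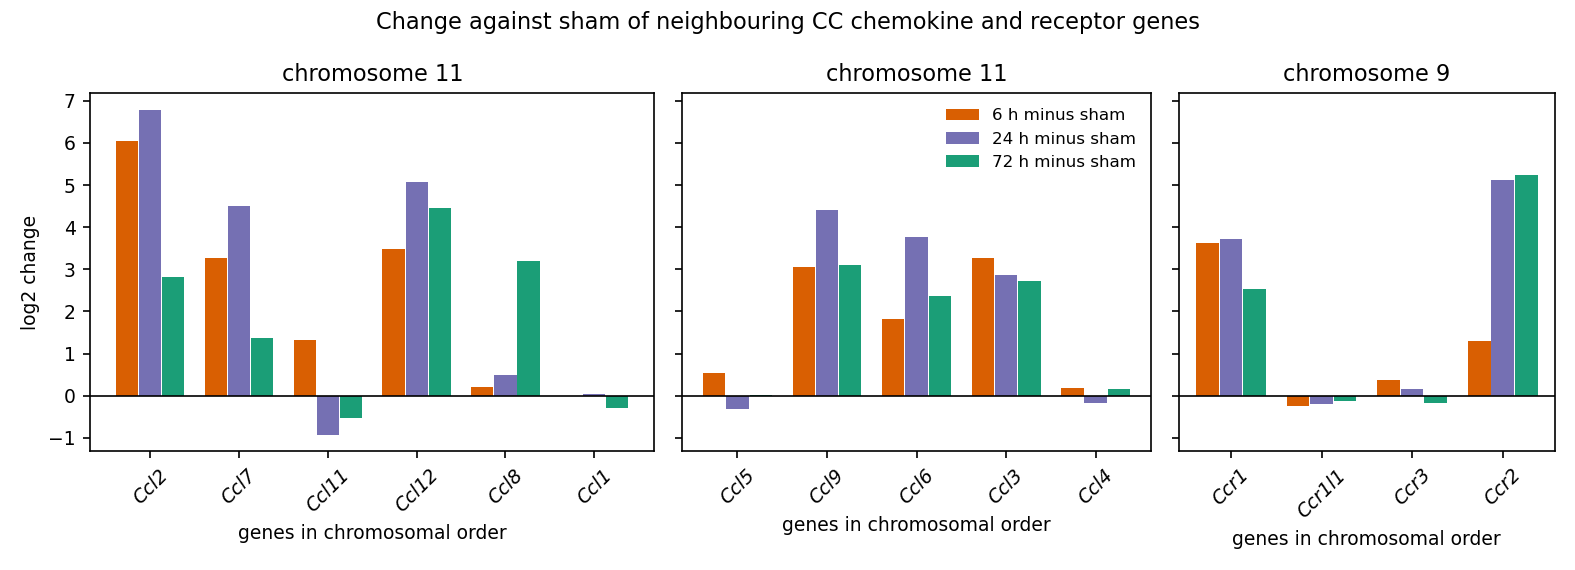
Log2 change against sham at 6, 24 and 72 h for genes in their chromosomal order in 2 chemokine clusters and 1 receptor cluster, from limma. Distances between genes are not to scale, and bars carry no error. Ccl11 is 0.92 below sham at 24 h between Ccl7 and Ccl12, which are 4.50 and 5.07 above it. The Ccl11 mean at 24 h is below background, and so are those of Ccl1, Ccl8, Ccl5, Ccl4 and Ccr3 in each group.

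Other genes of the pathway were counted from lists drawn up by role. Of 13 other CC ligands, 4 were called higher and 1 lower at 6 h, 2 and 2 at 24 h, and 2 and none at 72 h, with median changes of 0.13, -0.12 and -0.05. Of all genes, 7.92% were called higher and 12.3% lower at 6 h, 13.8% and 12.3% at 24 h, and 11.5% and 10.3% at 72 h. The ligand counts at 24 and 72 h are thus near the background of all genes. Besides Ccl6, the largest called changes were those of Ccl21a, a CCR7 ligand, higher by 1.52 at 72 h, and Ccl17, a CCR4 ligand, higher by 1.42 at 6 h (limma adjusted p = 0.0029 and 0.000249). The Ccl17 mean at 6 h, 6.55, was below background. Of 7 other CC receptors measured, none was called in limma against sham at any of the 3 times, with median changes of 0.04, -0.15 and -0.25. At an unadjusted p under 0.05 there were 0 at 6 h, 1 at 24 h and 0 at 72 h. That gene was Ccr8, the receptor known for mouse CCL8, with changes of -0.40, -0.49 and -0.32 at 6, 24 and 72 h (adjusted p = 0.224, 0.0968 and 0.309). Each of these 7 receptors had a mean below background in every group, though Ccr7 at 6 h was close to it. These results therefore bound the difference in signal and not the difference in RNA.

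Of 5 atypical receptors, 1 was called higher and 1 lower at 6 h, and 2 were called lower at 24 h and 2 at 72 h. Of all genes, 7.92% were called higher at 6 h, and 12.3%, 12.3% and 10.3% lower at 6, 24 and 72 h. Ccrl2, a chemerin-binding receptor, fell by 2.03 ± 0.23 at 6 h (limma adjusted p = 2.66e-06), and Ackr2, a scavenger of inflammatory CC chemokines, fell by 0.86 ± 0.17 at 24 h (adjusted p = 0.00068) at a level below background. Of 13 measured genes of signalling downstream of chemokine receptors, 4 were called higher at 6 h, 12 at 24 h and 8 at 72 h, and none lower. The shares of all genes called higher were 7.92%, 13.8% and 11.5%. Rac2, a small GTPase of leukocytes, rose by 3.40 ± 0.38 at 72 h, and Vav1, an exchange factor for such GTPases, rose by 2.48 ± 0.30 at 72 h (adjusted p = 1.866e-06 and 6.8e-06). The Src-family kinase gene Fgr rose by 2.47 ± 0.31 at 24 h (adjusted p = 9.218e-06), to a level of 6.40 that is below background.

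For each member the genes with the most similar course were taken as those with the smallest root mean square difference in log2 signal relative to sham over the 12 reperfused arrays. For Ccl2 these were Prg4 (0.99), Lcn2 (1.08) and Ccn2 (1.27), and for Ccl7 they were Tubb6 (0.64), Cxcr2 (0.72) and Il1rn (0.77). Ccl12 lay nearest to the CD11b gene Itgam (0.44), Lilrb4a (0.54) and Lilr4b (0.64), and Ccl9 nearest to Msr1 (0.40), a macrophage scavenger receptor, Gpr35 (0.43) and Plek (0.63). The genes nearest to Ccl8 were Cxcl16 (0.45), C1qc (0.47) and Kif23 (0.52). For Ccl3 they were Sla (0.66), Sting1 (0.69) and Emp1 (0.70). For Ccl4, which stayed below background, they were Jakmip1, Anxa10 and Ctxn1 (0.16 each). The receptors had different nearest genes. For Ccr1 they were Cd44 (0.53), Slfn4 (0.63) and Tubb6 (0.66), and for Ccr2 they were the fibronectin gene Fn1 (0.73), the galectin gene Lgals3 (0.74) and Sirpb1c (0.86). Among the members themselves the closest pair was Ccl9 and Ccr1 (0.84) and the farthest was Ccl2 and Ccl4 (5.52). The receptors Ccr1 and Ccr2 differed by 2.24, and Ccl2 and Ccl7 by 2.26. No p is attached to these distances. They share the arrays, and with them the order of replicates 16 and 17 at 24 h.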

How the data were processed

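RNA from 16 mouse hearts was hybridized to 1 Affymetrix array each. The deposited values are log2 signals per probe set that the authors made with Affymetrix Expression Console, per the submitters' processing notes. The sources used here give no version, summarization method or genome build. The base of the log was taken as 2 from the range of values (1.83 to 19.82), and the identifiers are those of another array type than the one in the design text. The series title lists other hours than the labels, and the labels were followed. Array medians lay between 5.84 and 5.95, and the highest correlation between any pair of arrays was 0.990, with no identical arrays.

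Of 28846 probe sets, 19572 carried 1 gene symbol, none several and 9274 none in the platform annotation. For 55 genes with more than 1 probe set the brightest was kept. Group means were fitted with limma 3.58.1 in R 4.3.3 (12 residual degrees of freedom), followed by eBayes and Benjamini-Hochberg adjustment over 19505 genes at 0.05. No filter on low signals was set, so all 9 genes were tested. The labels do not say that hearts were processed apart, so p-values measure only the spread between arrays within groups, pooled over all 4 groups. A wide group, such as Ccr2 at 24 h (SD 1.43), thus widens the SE of that gene in every comparison. In simulated data for 24 h against sham over 19505 genes, 14% of changes of log2 size 0.5 were recovered, 90% of size 1 and 100% of sizes 2 and 3, with 6 false among 158 calls. The changed genes, 50 of each size, were drawn at random, and each gene had the same spread in all groups. In the data 26.1% of all genes were called at 24 h against sham, far more than were changed in the simulation. The adjusted threshold therefore differs between the simulation and the data. Members had SEs of 0.17 to 0.63, against a median of 0.183 over all genes, so the simulated recovery need not hold for them.

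The members, the gene lists and the alternatives were chosen with earlier results of these data known. Text names all 9 members, up to 3 called genes per list with the largest change against sham, 3 most similar genes per member, and chromosomal neighbours. Alternatives were quantile normalization, centring on the array median, on 4 hybridization spike-in probe sets or on 4 poly-A spike-in probe sets, the mean of probe sets, 2 filters on dim genes, a variance trend with robust moderation, array weights, fits of both compared groups only, each array left out, and 24 h replicates 16 and 17 both left out. Within-array differences were tested by exact permutation. Some genes of the lists are not reported here.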

Additional observations from a re-analysis of the deposited data

Results flagged for a closer look

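Among 36 sets of 4 arrays (9 genes in 4 groups), 4 held an array far from its 3 fellows, where chance gives about 1 in 20. At 6 h replicate 7 had the highest Ccl2 signal, 12.09, where the other 3 hearts lay between 11.36 and 11.47. The same heart had the highest Ccl9 signal, 13.77, where the others lay between 13.23 and 13.29. At 72 h replicate 21 had the lowest Ccl8 signal, 6.42, and in sham replicate 5 had the lowest Ccr2 signal, 6.81. Sham replicate 5 also had the highest Ccl12 signal of its group, 9.19, which did not meet this criterion.

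Some changes against sham differed between reperfusion times in limma. The change of Ccr2 was larger at 24 h than at 6 h by 3.81 and at 72 h than at 6 h by 3.93. The change of Ccl9 was larger at 24 h than at 6 h by 1.35 and differed by -1.29 at 72 h against 24 h. For Ccl2 the differences were -3.98 at 72 h against 24 h and -3.23 at 72 h against 6 h. For Ccl7 they were -3.12 and -1.90, and for Ccl8 they were 2.70 and 2.99.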

How the results depend on the processing

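Each of 54 member changes was recomputed under 27 alternatives, 16 of which left out 1 array. Of 32 changes called with all arrays, none turned in sign and 30 stayed called wherever the gene was fitted, while Ccl8 at 24 h and Ccl7 at 72 h against sham lost their call under some alternatives, as given above.

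Centring on the hybridization spike-ins moved the median of all genes by -0.22 at 6 h, 0.31 at 24 h and 0.50 at 72 h against sham and by 0.72 at 72 h against 6 h, and the poly-A spike-ins gave shifts of -0.34, -0.10, 0.19 and 0.52. Relative to that median, the members' changes moved by 0.00. With hybridization centring 6 members were called at 24 h against 6 h and 7 at 72 h against 6 h, and with poly-A centring 5 at 24 h against 6 h, where the deposited scale gave 2 and 4. Of all genes, these centrings called 53.1%, 72.3% and 29.3%, where the deposited scale called 28.2% at 24 h against 6 h and 30.6% at 72 h against 6 h. Leaving out 1 array gave 2 to 5 calls at 24 h against 6 h, with 5 reached without replicate 17. These fits called 23.2% to 30.1% of all genes.

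Spike-in centring moves all genes of an array alike, so a sign that turns under it says nothing particular to a member. Under hybridization centring the changes that turned were Ccl8 (-0.022) and Ccl4 (-0.042) at 6 h and Ccl4 (0.15) at 24 h against sham, Ccl3 (0.13) and Ccl4 (0.19) at 24 h against 6 h, Ccl3 (0.045) at 72 h against 24 h, and Ccl3 (0.17) and Ccl4 (0.71) at 72 h against 6 h. Under poly-A centring they were Ccl8 (-0.14) and Ccl4 (-0.16) at 6 h against sham, Ccl3 (0.14) at 72 h against 24 h and Ccl4 (0.51) at 72 h against 6 h. Quantile normalization turned Ccr1 at 24 h against 6 h (-0.14) and Ccl4 at 72 h against 6 h (0.073). Median centring turned Ccr1 at 24 h against 6 h (-0.014) and Ccl9 at 72 h against 6 h (-0.080). With both 24 h replicates 16 and 17 left out, Ccr2 at 72 h against 24 h was -0.048. With 1 array left out, ranges that cross 0 were -0.42 to 0.69 for Ccr1 at 24 h against 6 h, -0.44 to 0.17 for Ccl3 and -0.49 to 0.62 for Ccr2 at 72 h against 24 h, and -0.13 to 0.10 for Ccl4 and -0.070 to 0.23 for Ccl9 at 72 h against 6 h. The cause was not tested. The filters on dim genes left no fit for members below them.

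No paired analysis was possible because no replicate number occurs in more than 1 group. Signals of Ccl8 and Ccl4 below background, and 4 arrays per group, limit what can be read from these genes.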
